A study of Mus musculus with 8 samples.

Results

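Matrix metalloproteinases (MMPs) and their tissue inhibitors (TIMPs) were examined in the spinal cord of mice with experimental autoimmune encephalomyelitis (EAE), a model of multiple sclerosis in which autoreactive T cells start an attack on myelin. The genes were Mmp2, Mmp3, Mmp9, Mmp12, Mmp14, Timp1, Timp2 and Timp3. Every probe set of the Affymetrix MG U74Av2 array whose annotation names 1 of these 8 genes was taken, which gave 14 of the 12422 probe sets tested. Timp2 had 3 probe sets, Mmp2, Mmp9, Mmp12 and Timp1 had 2 each, and Mmp3, Mmp14 and Timp3 had 1 each. The EAE group was 5 arrays from 10 female SJL/J mice injected with a PLP peptide, and the control group was 3 arrays from 6 female SJL/J mice injected with vehicle. Both groups were 8 to 12 weeks old by the labels. The methods give this range for EAE induction in general and only the lower age for the array mice. Each array held RNA of the whole spinal cord pooled from 2 mice, so the spread between single animals is not seen. The EAE arrays had an average clinical grade of 2.5 by the labels, where the methods give a range that starts at this grade, and were taken at day 12 to 14 (array 2), day 14 (arrays 1 and 4), day 15.5 (array 5) and day 17 (array 3) of EAE. For EAE induction the methods also name complete Freund's adjuvant and pertussis toxin, and what the vehicle held is not given in the sources used here. Murine serum albumin, given intravenously shortly before death, is named for EAE mice and not for controls. Its effect, like that of the adjuvant and the toxin if controls had none, cannot be told apart from that of EAE.

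MMPs are zinc-dependent endopeptidases that are made as inactive precursors and cleave collagens, laminins and proteoglycans of the extracellular matrix, as well as cytokines and cell surface proteins. TIMPs bind the catalytic site of active MMPs and block it, and TIMP3 also inhibits several ADAM proteases. In EAE, MMPs are known for cleaving the basement membranes that leukocytes cross on their way from the vessels into the central nervous system. Much of their control lies after transcription, in activation, binding of inhibitors and clearance, none of which an RNA array measures.

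Values are the deposited log2 signals, on which a difference of 1 is a change of 2-fold, and differences are EAE minus control from limma with batch as a term. A batch is a processing day. Arrays 1 to 3 of each group shared a day by number, so the fitted difference rests on these 3 pairs, while EAE arrays 4 and 5 had no control of their own day. A probe set passed when its Benjamini-Hochberg adjusted p over all 12422 probe sets was under 0.05. Over all probe sets 8.26% passed as higher in EAE and 11.4% as lower, 10.9% had every EAE array above every control array and 15.1% had every EAE array below every control array. The median log2 difference over all probe sets was -0.05. As a check of RNA integrity, the 3' Gapdh control probe set exceeded the 5' one by 1.46 (EAE array 1), 2.07 (EAE array 4) and 0.46 to 0.78 (the remaining EAE arrays) on the log2 scale, against 0.53 to 0.97 in control arrays. For beta-actin the same difference was 2.35 (EAE array 1), 2.79 (EAE array 4) and 1.11 to 1.83 (the remaining EAE arrays), against 1.62 to 2.29 in control arrays, so that EAE array 1 stood apart from the controls by Gapdh but hardly by beta-actin. Markers of the labelled tissue were present, with a mean log2 signal of 9.20 to 9.51 in EAE arrays and 10.1 to 10.2 in control arrays over 8 neuronal genes, of which 5 were lower in EAE.

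Timp1, Mmp12 and Mmp14 were higher in EAE spinal cord, and no member passed as lower. Of the 14 probe sets 4 were higher (28.6%), and the same number had every EAE array above every control array. They were the brighter Timp1 probe set, both Mmp12 probe sets and the Mmp14 probe set. The median log2 difference over the 14 probe sets was 0.0012. Mmp2, Mmp3, Mmp9, Timp2 and Timp3 had no probe set that passed. When the variances were left unmoderated, no member passed, with adjusted p-values of 0.109 for Timp1, 0.221 and 0.251 for Mmp12 and 0.270 for Mmp14.

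**Figure D1:**
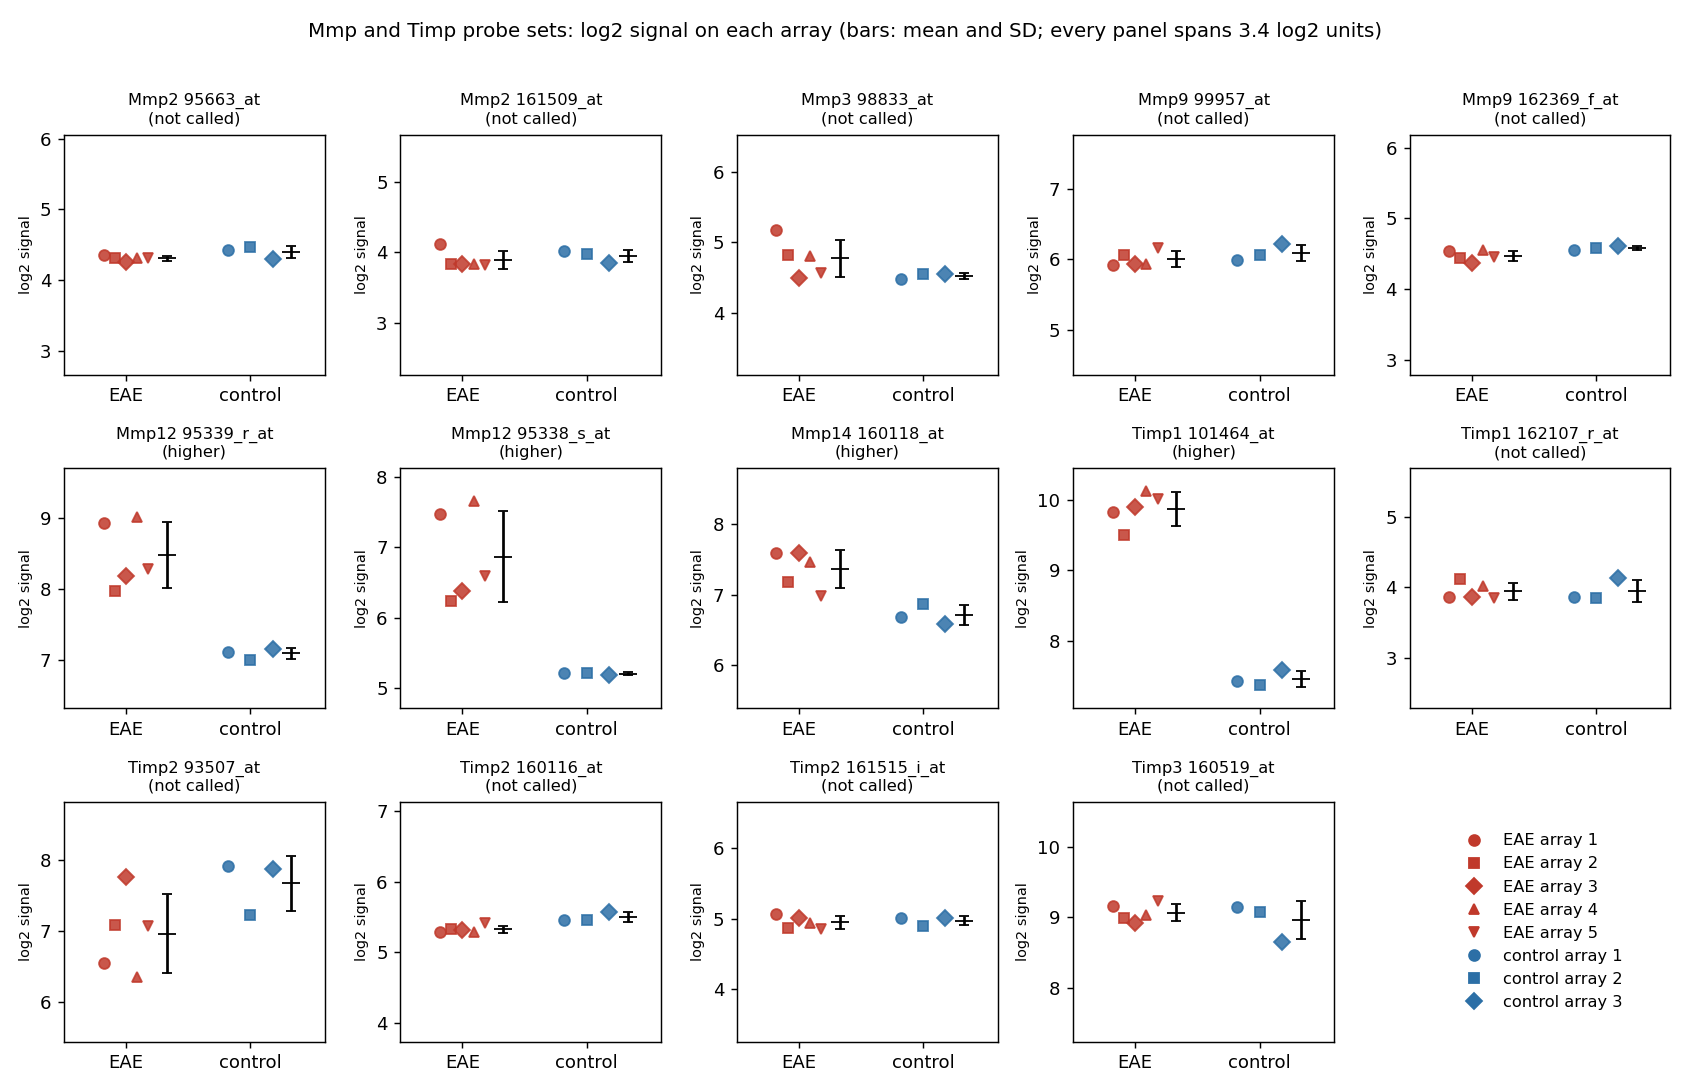
Log2 signal (vertical axis) of the 14 Mmp and Timp probe sets on each array, with EAE arrays in red on the left and control arrays in blue on the right of each panel, symbols by array number, and bars for the mean and SD. In the panels of Timp1 101464_at, both Mmp12 probe sets and Mmp14 every EAE point lies above every control point, and in the other panels the groups overlap or lie close together.

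Timp1, the inducible inhibitor that is secreted by astrocytes among other cells during inflammation, had the largest change among the members. Its brighter probe set, 101464_at, had a log2 signal of 9.83, 9.50, 9.90, 10.12 and 10.01 in EAE arrays 1 to 5, against 7.43, 7.38 and 7.59 in control arrays 1 to 3. The groups did not overlap, and array 2 was the lowest of the EAE arrays. The fitted log2 difference was 2.27 (standard error 0.0805, adjusted p = 0.000283), a rise of 4.84-fold with a 95% interval of 4.19 to 5.58. It was 2.39, 2.12 and 2.31 within batches 1, 2 and 3. An exact permutation of the group labels, with 56 possible regroupings, gave p = 0.0179, the smallest it can give. The EAE arrays, of days 12 to 17, spanned 1.54-fold among themselves. In bulk tissue, more cells of a type and more RNA per cell cannot be told apart.

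The other Timp1 probe set, 162107_r_at, disagreed. Its log2 signal was 3.86, 4.12, 3.86, 4.02 and 3.85 in EAE arrays 1 to 5, against 3.87, 3.85 and 4.13 in control arrays 1 to 3, and the fitted difference was -0.0032 (adjusted p = 0.991). The groups overlapped fully. Its mean signal was at percentile 1.65 of all probe sets, and its suffix marks a probe set for which the design rules of the array were relaxed. With the mean of both probe sets Timp1 was higher by 1.14 on the log2 scale (adjusted p = 0.000949).

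The promoter window of Timp1 in RefSeq is printed because this gene moved most. It runs from 250 bases before the start to 50 bases after it, on the plus strand at chrX:20869916-20870215 (GRCm38.p6), and the capitals mark the Ets motif AGGAAG, found 3 times.
Timp1: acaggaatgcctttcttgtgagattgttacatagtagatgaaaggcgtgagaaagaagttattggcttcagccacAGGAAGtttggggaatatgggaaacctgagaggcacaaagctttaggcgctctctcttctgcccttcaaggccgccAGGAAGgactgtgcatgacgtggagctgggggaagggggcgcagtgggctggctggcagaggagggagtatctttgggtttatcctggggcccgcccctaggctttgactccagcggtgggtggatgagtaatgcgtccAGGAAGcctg
Windows were found for 6 of the 8 genes, all but Mmp2 and Mmp9, and Mmp12 had 2, which gave 7 windows. They were searched on both strands for TGANTCA (AP-1), TTCNNNGAA (STAT) and AGGAAG (Ets). AGGAAG was in 5 of the 7 windows, those of Timp1, Timp3, Mmp3, Mmp14 and the first of Mmp12, and in 35.4% of all 32851 windows of this length. TTCNNNGAA was in 0 of the 7 and in 8.30% of all windows. A match describes letters only, and genes that passed and genes that did not both hold AGGAAG.

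Mmp12, the macrophage metalloelastase, was higher with both of its probe sets. Neither has the plain _at suffix, and 95339_r_at carries the suffix for relaxed design rules, as Timp1 162107_r_at does. Probe set 95339_r_at had a log2 signal of 8.94, 7.98, 8.18, 9.02 and 8.28 in EAE arrays 1 to 5, against 7.11, 7.00 and 7.15 in control arrays 1 to 3. Probe set 95338_s_at had 7.46, 6.24, 6.38, 7.65 and 6.59 in EAE arrays 1 to 5, against 5.22, 5.22 and 5.19 in control arrays 1 to 3. The groups did not overlap, and EAE arrays 1 and 4 were the highest with either probe set. The fitted log2 difference was 1.28 for 95339_r_at (standard error 0.183, adjusted p = 0.0118), a rise of 2.43-fold with an interval of 1.75 to 3.36. It was 1.48 for 95338_s_at (standard error 0.250, adjusted p = 0.0184), a rise of 2.80-fold with an interval of 1.79 to 4.36. The exact permutation p was 0.0179 for both. Within batches 1, 2 and 3 the log2 difference of 95339_r_at was 1.82, 0.98 and 1.03, and that of 95338_s_at was 2.25, 1.01 and 1.19.

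EAE arrays differed from each other more in Mmp12 than in Timp1, by 2.07-fold for 95339_r_at and 2.67-fold for 95338_s_at. EAE arrays 1 and 4, where Mmp12 was highest, were both taken at day 14 and had the largest 3' minus 5' difference of Gapdh, and the part of RNA quality in the Mmp12 values was not tested. Without these arrays, a choice made after the data were seen that leaves the pairs of batches 2 and 3, both probe sets still passed, with log2 differences of 1.01 (adjusted p = 0.00404) for 95339_r_at and 1.10 (adjusted p = 0.00401) for 95338_s_at. Without EAE array 3 or control array 3 neither passed (adjusted p = 0.0671 for 95339_r_at and 0.0897 for 95338_s_at), with log2 differences of 1.40 and 1.63.

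Mmp14, a membrane-anchored MMP that cleaves collagen at the cell surface and activates the precursor of MMP2, had the smallest change that passed among the members. Its log2 signal was 7.58, 7.18, 7.59, 7.46 and 6.98 in EAE arrays 1 to 5, against 6.68, 6.86 and 6.59 in control arrays 1 to 3. The groups did not overlap, but EAE array 5 lay close to control array 2. The fitted log2 difference was 0.74 (standard error 0.148, adjusted p = 0.0282), a rise of 1.67-fold with an interval of 1.29 to 2.18, and the exact permutation p was 0.0357. Within batches 1, 2 and 3 it was 0.90, 0.32 and 1.01. It no longer passed without EAE or control array 1 (log2 difference 0.66, adjusted p = 0.0734) or without EAE or control array 3 (0.61, adjusted p = 0.149), nor without EAE arrays 1 and 4 together, which gave the same value as leaving out array 1 (adjusted p = 0.0734).

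**Figure D2:**
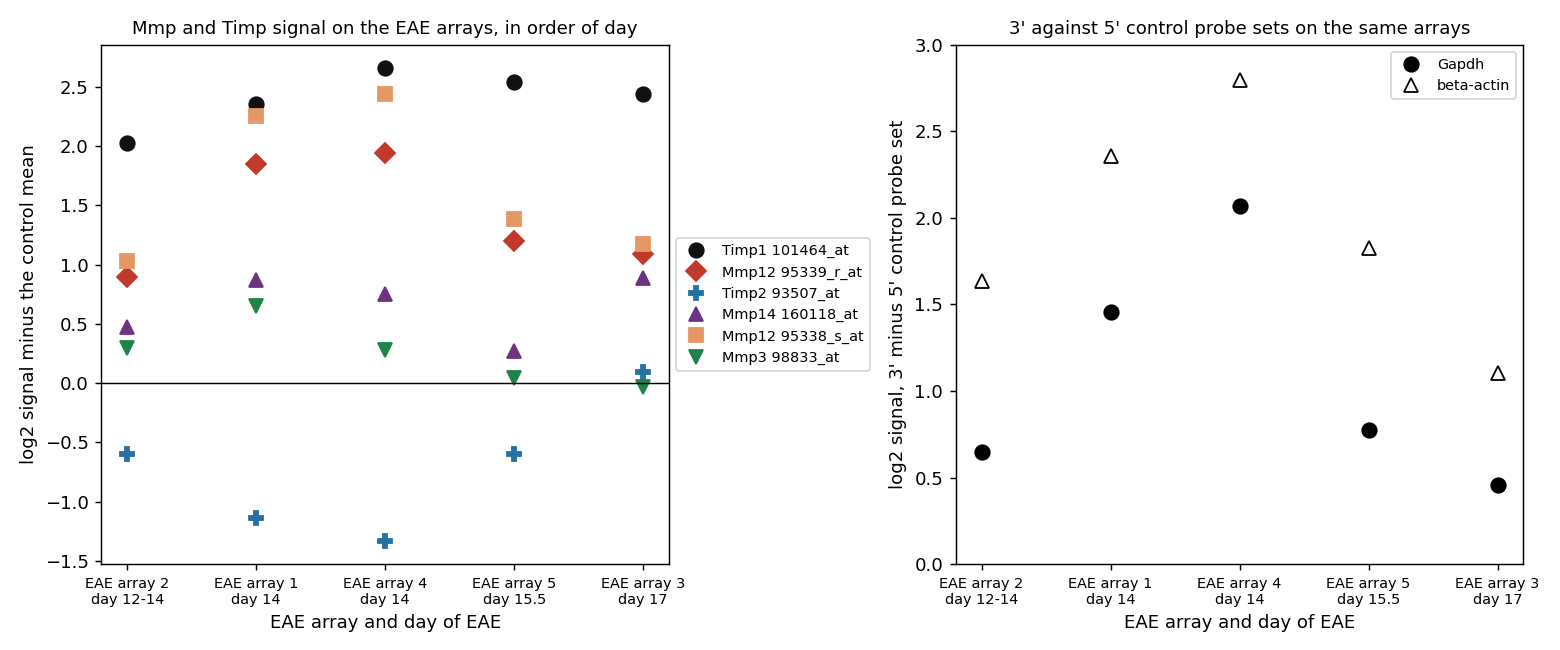
Left, log2 signal of 6 Mmp and Timp probe sets minus their control mean (vertical axis) on the 5 EAE arrays in order of the day of EAE (horizontal axis); right, log2 signal of the 3' minus the 5' control probe set of Gapdh (filled) and beta-actin (open) on the same arrays. Both Mmp12 probe sets are highest and Timp2 93507_at is lowest on arrays 1 and 4 of day 14, where the 3' minus 5' difference of Gapdh is 1.46 and 2.07.

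Mmp3, stromelysin, which cleaves proteoglycans and laminin and activates the precursors of other MMPs, did not pass. Its log2 signal was 5.18, 4.82, 4.49, 4.80 and 4.57 in EAE arrays 1 to 5, against 4.48, 4.55 and 4.55 in control arrays 1 to 3. EAE arrays 1, 2 and 4 stood above the control arrays, array 5 barely so, and array 3 lay within their range. The log2 difference was 0.30 with a 95% interval of -0.08 to 0.69 (adjusted p = 0.244), and within batches 1, 2 and 3 it was 0.70, 0.27 and -0.05. The mean signal of Mmp3 was at percentile 11.9 of all probe sets, and such a dim probe set can miss a change.

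Mmp12 and Mmp3 lie in the same cluster of MMP genes on chromosome 9, and their windows are printed because both hold the AP-1 letters at nearly the same place, while Mmp12 passed and Mmp3 did not. The windows are on the plus strand at chr9:7344147-7344446 and chr9:7347124-7347423 for Mmp12 and at chr9:7445572-7445871 for Mmp3 (GRCm38.p6). Capitals mark TGANTCA or AGGAAG on either strand.
Mmp12, first window: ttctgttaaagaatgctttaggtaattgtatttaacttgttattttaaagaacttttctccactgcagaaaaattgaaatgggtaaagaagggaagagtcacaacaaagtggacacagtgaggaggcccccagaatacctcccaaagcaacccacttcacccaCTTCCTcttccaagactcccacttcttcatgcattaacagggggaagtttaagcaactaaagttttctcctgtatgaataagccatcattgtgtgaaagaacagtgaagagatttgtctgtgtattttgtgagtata
Mmp12, second window: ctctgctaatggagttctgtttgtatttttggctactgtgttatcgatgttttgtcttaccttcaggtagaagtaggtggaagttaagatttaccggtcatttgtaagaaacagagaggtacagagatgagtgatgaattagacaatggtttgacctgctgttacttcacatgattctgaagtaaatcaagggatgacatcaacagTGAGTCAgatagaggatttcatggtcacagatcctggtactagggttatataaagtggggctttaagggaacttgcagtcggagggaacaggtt
Mmp3: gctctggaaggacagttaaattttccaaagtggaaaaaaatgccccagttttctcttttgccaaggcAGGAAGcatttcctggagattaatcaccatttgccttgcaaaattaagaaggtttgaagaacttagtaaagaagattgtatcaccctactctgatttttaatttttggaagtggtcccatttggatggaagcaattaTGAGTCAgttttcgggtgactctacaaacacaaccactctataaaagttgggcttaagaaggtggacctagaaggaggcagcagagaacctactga
TGAGTCA stands 44 bases before the start in the second window of Mmp12 and 46 bases before the start in that of Mmp3. TGANTCA was in these 2 of the 7 windows and in 7.81% of all windows. Of the cluster 6 genes were measured, in the order Mmp13, Mmp12, Mmp3, Mmp10, Mmp8 and Mmp7 along 420.1 kb. Of these Mmp12 and Mmp8 passed, and they are not next to each other.

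The window of Mmp14, on the plus strand at chr14:54431348-54431647 (GRCm38.p6), is printed as that of the remaining gene that passed, with AGGAAG in capitals 209 bases before the start.
Mmp14: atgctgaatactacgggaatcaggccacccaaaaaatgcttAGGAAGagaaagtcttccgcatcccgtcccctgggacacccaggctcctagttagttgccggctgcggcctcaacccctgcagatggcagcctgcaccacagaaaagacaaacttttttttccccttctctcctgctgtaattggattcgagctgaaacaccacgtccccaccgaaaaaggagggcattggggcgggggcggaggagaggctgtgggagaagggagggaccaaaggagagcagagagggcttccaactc

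The gelatinases Mmp2 and Mmp9, which cleave denatured collagen and the type IV collagen of basement membranes, did not pass with any probe set. Mmp9 99957_at had a log2 signal of 5.93, 6.07, 5.94, 5.93 and 6.16 in EAE arrays 1 to 5, against 5.99, 6.06 and 6.21 in control arrays 1 to 3. The groups overlapped, and the log2 difference was -0.11 with a 95% interval of -0.32 to 0.10 (adjusted p = 0.444). The dimmer Mmp9 162369_f_at, whose suffix marks probes shared within a gene family, had every EAE array below every control array, at 4.37 to 4.55 in EAE and 4.55 to 4.61 in control, with a log2 difference of -0.13 (adjusted p = 0.317). Mmp2 95663_at lay at 4.26 to 4.36 in EAE arrays and 4.30 to 4.46 in control arrays, a log2 difference of -0.08 with an interval of -0.25 to 0.08. Mmp2 161509_at lay at 3.81 to 4.12 in EAE arrays and 3.84 to 4.02 in control arrays, a log2 difference of -0.02 with an interval of -0.21 to 0.18. The Mmp2 probe sets were at percentiles 5.70 and 1.42 of all probe sets by mean signal. Such dim probe sets can miss a change, so the lack of a call does not show that Mmp2 was unchanged.

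Neither Timp3 nor Timp2, both made in the healthy tissue, passed. Timp3, which is bound to the matrix, had a log2 signal of 9.15, 8.99, 8.92, 9.03 and 9.22 in EAE arrays 1 to 5, against 9.15, 9.07 and 8.65 in control arrays 1 to 3. The groups overlapped, and the log2 difference was 0.07 with an interval of -0.17 to 0.30 (adjusted p = 0.680). Its mean signal was at percentile 93.3 of all probe sets.

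Timp2, which inhibits MMPs and also takes part in the activation of MMP2 by MMP14, gave 3 probe sets that did not pass. Timp2 93507_at had a log2 signal of 6.54, 7.08, 7.77, 6.35 and 7.08 in EAE arrays 1 to 5, against 7.92, 7.23 and 7.88 in control arrays 1 to 3. EAE arrays 1 and 4 were the lowest and EAE array 3 lay among the controls. The log2 difference was -0.55 with an interval of -1.24 to 0.14 (adjusted p = 0.240), and within batches 1, 2 and 3 it was -1.38, -0.15 and -0.12. Without EAE arrays 1 and 4, which had the largest 3' minus 5' difference of Gapdh, it was -0.13 (adjusted p = 0.402). Timp2 160116_at had every EAE array below every control array, at 5.29, 5.33, 5.31, 5.29 and 5.41 in EAE arrays 1 to 5, against 5.46, 5.46 and 5.57 in control arrays 1 to 3. Its log2 difference was -0.19 with an interval of -0.36 to -0.02, its exact permutation p 0.0179 and its adjusted p 0.124, so it did not pass. It passed as lower with batch as a random block (adjusted p = 0.0390). Timp2 161515_i_at lay at 4.85 to 5.06 in EAE arrays and 4.89 to 5.01 in control arrays, a log2 difference of 0.01.

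**Figure D3:**
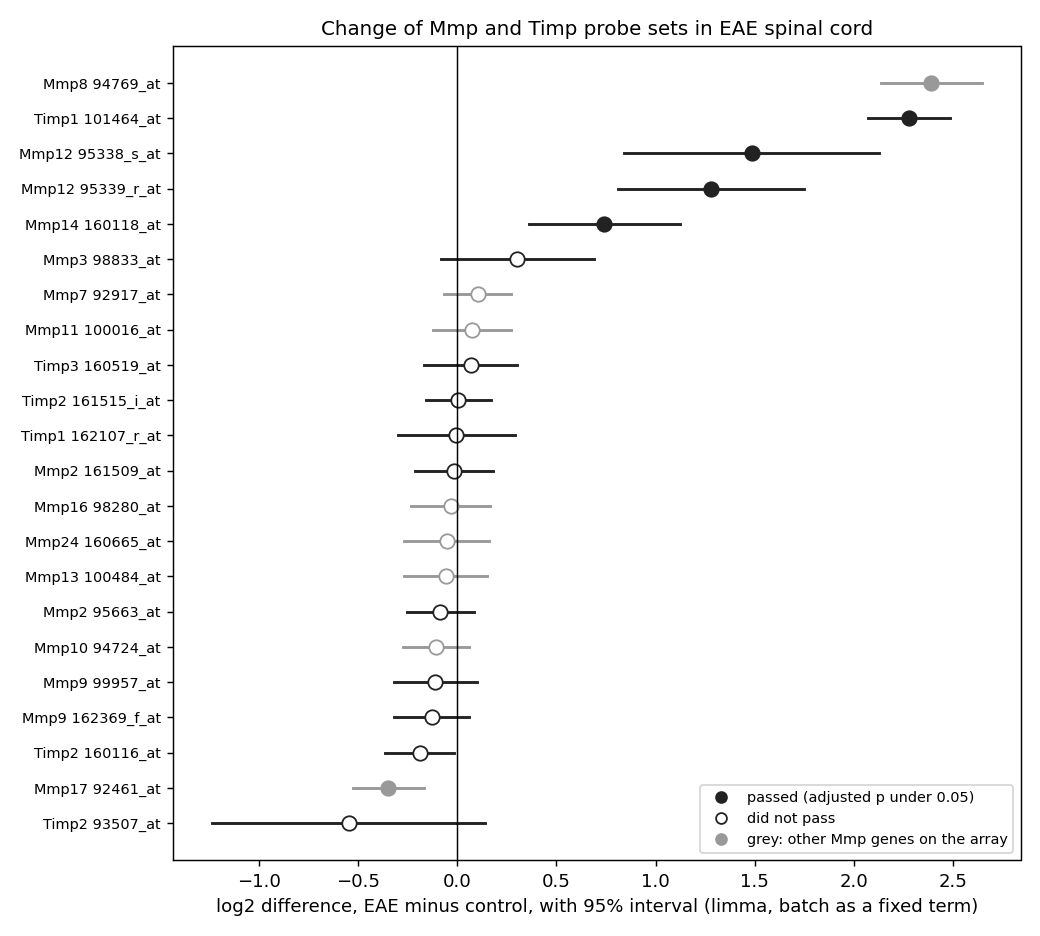
Fitted log2 difference, EAE minus control (horizontal axis), with 95% intervals for the 14 Mmp and Timp probe sets in black and the 8 other measured Mmp genes in grey. Filled points passed at an adjusted p under 0.05 and open points did not; Mmp8 at 2.39 and Timp1 at 2.27 stand above the rest, and the intervals of the open points other than that of Timp2 160116_at include 0.

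Of the 18 other MMP genes listed 8 were measured, and 1 was higher and 1 lower. Mmp8, the collagenase of neutrophil granules, had a log2 signal of 7.81, 8.16, 7.84, 8.16 and 7.99 in EAE arrays 1 to 5, against 5.56, 5.52 and 5.56 in control arrays 1 to 3, and its log2 difference was 2.39 (standard error 0.0994, adjusted p = 0.000403). The groups were far apart, and its difference was the largest of the measured MMPs. Mmp17, a membrane-anchored MMP, was lower by a log2 difference of -0.35 (standard error 0.0704, adjusted p = 0.0294), and it no longer passed when any 1 array of batches 1 to 3 was left out. With the 5 members, 3 of the 13 measured MMP genes were higher and 1 was lower. The shares over all 8251 genes were 9.19% higher and 13.5% lower.

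Whether Timp1 rose more than each MMP was tested on the log2 signal of Timp1 minus that of the MMP on each array. This difference was higher in EAE than in control for 12 of the 13 MMPs by the exact permutation test adjusted over the 13. For 11 of them the adjusted p was 0.0211, from an unadjusted p of 0.0179, the smallest possible. Timp1 had the largest change among the members, and the test was chosen with earlier results known, so a high count was foreseeable. This test regroups all 8 arrays and leaves out batch, and an exact permutation within the 3 shared batches alone could not go below p = 0.25. The 9 MMPs that did not pass themselves were Mmp2, Mmp3, Mmp9, Mmp7, Mmp10, Mmp11, Mmp13, Mmp16 and Mmp24. Their probe sets lay below the median brightness, at percentiles 5.70 to 48.7 of all probe sets by mean signal, with Mmp9 and Mmp11 close to the median. Against them the change was 2.16 to 2.49, close to the 2.40 between the group means of Timp1 itself, so these comparisons mostly restate the rise of Timp1. Against Mmp12 it was 0.89, 1.52, 1.72, 1.10 and 1.72 in EAE arrays 1 to 5 and 0.32, 0.38 and 0.44 in control arrays 1 to 3, a change of 1.01 (exact permutation, adjusted p = 0.0387). The ratio to Mmp12 rose least in EAE arrays 1 and 4. These values are for Mmp12 95339_r_at, whose group means differed by 1.39, against 1.66 for Mmp12 95338_s_at. With 95338_s_at the groups overlapped, since Timp1 minus Mmp12 was lower in EAE array 1 than in control array 3. That comparison was not tested. Against Mmp14 the change was 1.75 on the log2 scale. Against Mmp8 it was -0.04 (exact permutation, adjusted p = 0.946), with 1.34 to 2.06 in EAE arrays and 1.85 to 2.03 in control arrays. The call against Mmp12 was lost without EAE array 2, 3, 4 or 5 (exact permutation, adjusted p = 0.0619). With the mean of all probe sets of each gene, which takes in the dim Timp1 probe set, the change against Mmp12 was -0.33 (exact permutation, adjusted p = 0.357), that against Mmp14 was 0.55 (exact permutation, adjusted p = 0.0580) and that against Mmp8 was -1.25 and passed (exact permutation, adjusted p = 0.0211). With 1 control array left out, where the smallest exact p is 0.0476 before adjustment, no comparison passed (exact permutation, adjusted p = 0.0516 for the same 12). Such a difference compares changes of signal and says nothing of the amounts of protein.

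**Figure D4:**
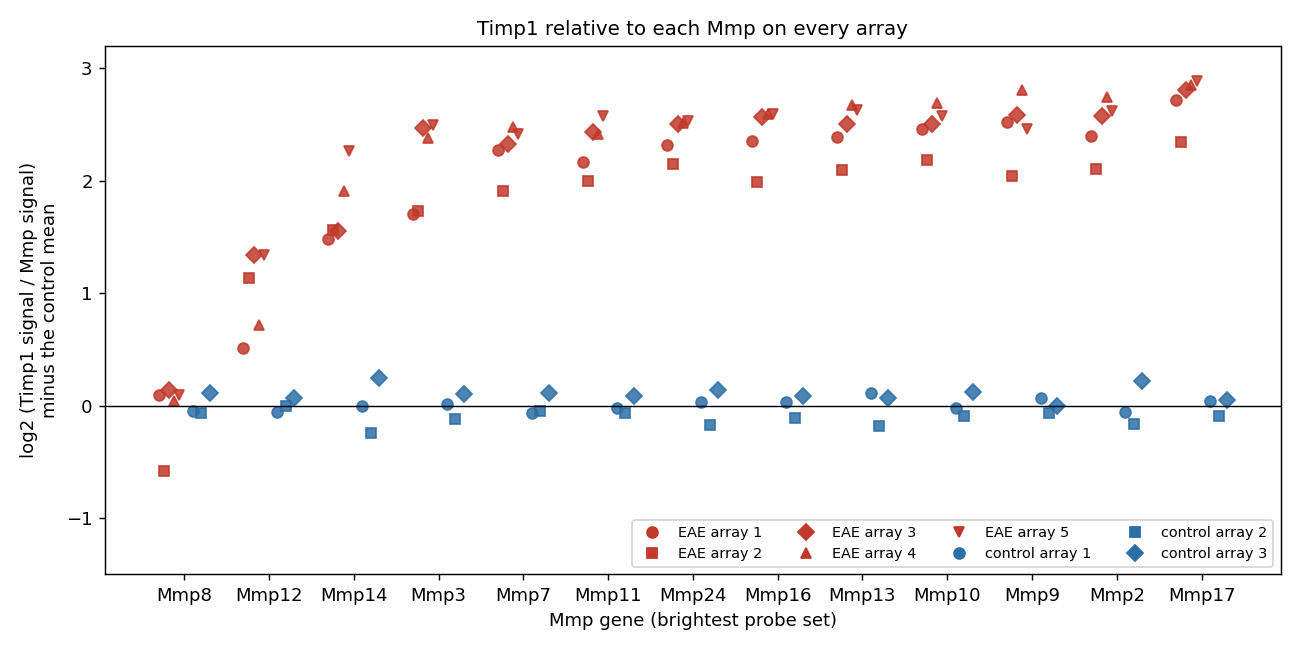
Log2 signal of Timp1 minus that of each measured Mmp on every array, shown relative to the control mean (vertical axis), for the brightest probe set of 13 Mmp genes (horizontal axis), with EAE arrays in red and control arrays in blue. EAE points lie above the control points for every gene but Mmp8, and for Mmp12 the change is 1.01 against 2.48 for Mmp9.

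Among 5 other inhibitors measured, A2m, the alpha-2-macroglobulin that traps proteases of many classes, was the only one that passed. Its log2 signal was 7.67, 8.49, 8.60, 8.50 and 8.41 in EAE arrays 1 to 5, against 7.25, 7.13 and 7.41 in control arrays 1 to 3, a log2 difference of 0.99 (standard error 0.193, adjusted p = 0.0263). EAE array 1 was far lower than the other EAE arrays, and A2m did not pass without an array of batch 2 or batch 3. Of 12 ADAM and ADAMTS proteases, relatives of the MMPs that shed cell surface proteins or cleave proteoglycans, 3 were higher and 1 lower. Adam8, found on leukocytes, was higher by a log2 difference of 1.15 (adjusted p = 0.00696), Adam9 by 0.68 (adjusted p = 0.00765) and Adamts1, which cleaves proteoglycans, by 0.36 (adjusted p = 0.0454), and Adam19 was lower at -0.34 (adjusted p = 0.0283). Adam19 did not pass when any 1 array of batches 1 to 3 was left out, and without an array of batch 3 the count of higher genes was 1. Over all 8251 genes 9.19% were higher and 13.5% lower.

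Of 19 genes for the activation, docking and clearance of MMPs 3 were higher (15.8%) and 0 lower, against 9.19% and 13.5% over all genes. Their median log2 difference was 0.05 against -0.05 over all genes. Lcn2, lipocalin 2, which forms a complex with MMP9 in human neutrophils, was higher and had a log2 signal of 9.88 to 11.19 in EAE arrays and 4.45 to 4.61 in control arrays. Plaur, the receptor of urokinase, which brings plasmin formation to the cell surface, was higher by 0.92 (adjusted p = 0.00915). Furin, the convertase that cleaves the precursor of MMP14, was higher by 0.56 (adjusted p = 0.0491) and lay just inside the threshold.

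Of 21 cytokines and transcription factors that are known to induce Mmp or Timp1 transcription, 10 were higher (47.6%) and 0 lower. The shares over all genes were 9.19% and 13.5%, and the median log2 difference of the 21 was 0.38. Cebpb, a transcription factor of the acute phase response, had a log2 signal of 7.30 to 9.29 in EAE arrays and 4.44 to 4.58 in control arrays, a log2 difference of 3.47 (adjusted p = 0.00164). The cytokine Il1b was higher by 2.21 (adjusted p = 0.00412), Il1a by 1.58 (adjusted p = 0.000683) and Il6 by 1.26 (adjusted p = 0.0363). Without EAE or control array 3 the count was 5. Of 34 listed substrates, mainly of the matrix but with Mbp and Dag1 included, 5 were higher (14.7%) and 2 lower (5.88%). Their median log2 difference was 0.02. Tenascin C (Tnc) was higher by 1.35 (adjusted p = 0.00474), fibronectin (Fn1) by 1.32 (adjusted p = 0.00147) and the basement membrane collagen Col4a1 by 1.10 (adjusted p = 0.0232). Brevican (Bcan), a proteoglycan of the perineuronal matrix, was lower at -1.27 (adjusted p = 0.00411). Leaving out an array of batches 1 to 3 left 2 or 3 of the listed substrates higher.

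Markers of several cell types also differed between EAE and control. Among all genes 9.19% passed as higher and 13.5% as lower. Of 18 macrophage and microglia markers 17 were higher, all but Cx3cr1, and their mean log2 signal was 8.43 to 9.01 in EAE arrays and 6.02 to 6.15 in control arrays. This mean was highest in EAE array 3. Single markers differed, with Cd68 highest in EAE array 3 (9.30) and Msr1 highest in EAE arrays 4 and 1 (7.62 and 7.31). Of 10 neutrophil markers 5 were higher, with a mean of 6.45 to 6.81 in EAE arrays and 5.40 to 5.48 in control arrays, and Elane, Mpo, Csf3r, Cxcr2 and Ly6g did not pass. The neutrophil count was 3 without an array of batch 1 or batch 3. Of 10 T cell markers 5 were higher, with a mean of 5.33 to 5.45 in EAE arrays and 5.02 to 5.08 in control arrays, and the count was 1 without an array of batch 3. Of 9 endothelial markers 3 were higher, and 1 without an array of batch 1 or batch 3. Lower in EAE were 5 of 8 neuronal, 4 of 6 spinal cord, 3 of 8 astrocyte and 2 of 7 oligodendrocyte markers, and 1 astrocyte marker was higher. The spinal cord count of lower markers changed markedly under 8 alternatives and stayed about the same in 4. Those of neuronal and astrocyte markers changed markedly under 3 each, and that of oligodendrocyte markers under 1. The part of cell numbers in the Mmp and Timp values was not tested.

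The genes whose values over the 8 arrays lay nearest to each member that passed, by Euclidean distance of log2 signals from their control mean among 8250 genes, were as follows. For Timp1 they were Ptprc, the pan-leukocyte phosphatase CD45, Ctss, cathepsin S, and Tnfrsf1b, a receptor of TNF, at distances of 0.425, 0.516 and 0.533. For Mmp12 they were Tent5c, Ccn3 and Pros1, the anticoagulant protein S, at 0.441, 0.495 and 0.496. For Mmp14 they were Ifnar2, a chain of the interferon receptor, Fes, a tyrosine kinase of myeloid cells, and Hfe, a regulator of iron uptake, at 0.243, 0.301 and 0.334. This likeness is a description, since the genes were picked by it.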

How the data were processed

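RNA of whole spinal cord was measured on 8 Affymetrix MG U74Av2 arrays, 5 EAE and 3 control, of 2 pooled mice each. The deposited log2 values were made by the authors in Partek with RMA, quantile normalization and an adjustment for GC content; the tool versions are not given in the sources used here. Such processing draws all arrays to the same distribution and so reports changes relative to the bulk of genes. The values were not normalized again. Of 12488 probe sets 66 are controls of the manufacturer, and the other 12422 were tested with no filter on dim ones. Probe sets were named from the array's annotation, in which 10833 have 1 gene symbol, 396 several and 1193 none. Lists used the probe set with the highest mean for each of 8251 genes.

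The linear model was fitted in R 4.3.3 by limma 3.58.1 (two-sided moderated test), with treatment and batch as terms after the methods' 2 way analysis, 2 residual and 3.05 prior degrees of freedom, and Benjamini-Hochberg adjustment over 12422 probe sets with a threshold of 0.05. Intervals are 95% intervals of that fit. Permutation tests were exact over 56 regroupings, without batch, and two-sided. The batch equals the replicate number and the processing day in the labels, so the numbers pair the arrays; deviations from the group means correlated at 0.302, -0.231 and 0.412 in batches 1, 2 and 3. Arrays are pools of separate mice, and their number limits the precision.

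The members, the gene lists, the tests and the rule for named genes (all member probe sets, up to 4 genes that passed with the largest change in each list, and the 3 nearest genes of each member that passed) were chosen with earlier results of these data known. Gene names and promoter windows came from RefSeq tables of GRCm38.p6; 10817 probe sets matched by Entrez identifier. Alternatives covered the batch term, the variance model, centring, normalization, array weights, dim probe sets, thresholds, the summary of probe sets and each array left out. On simulated data of this design the fit called 28.4% of 67 changes of 0.5, 65.7% of 67 changes of 1 and 84.8% of 66 changes of 2 on the log2 scale, with 5 false calls among 124. Far fewer probe sets were changed there than were called in the data, so these shares need not hold for the real comparison. Figures were drawn with matplotlib 3.10.9.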

Additional observations from a re-analysis of the deposited data

Results flagged for a closer look

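Among 45 sets of values over the 5 EAE arrays 3 held an array that stood apart from the other 4; chance marks about 1 such set in 20. EAE array 1 was high for Mmp2 161509_at, with a log2 signal of 4.12 while the remaining 4 lay at 3.81 to 3.84. EAE array 2 was low for the log2 signal of Timp1 minus that of Mmp8, at 1.34 while the remaining 4 lay at 1.96 to 2.06. EAE array 1 was low for A2m, with a log2 signal of 7.67 while the remaining 4 lay at 8.41 to 8.60.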

How the results depend on the processing

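The rise of Timp1 101464_at passed under every alternative run but the linear model without moderation of the variances, and Mmp12 and Mmp14 kept their direction under all. Without moderation 0 members were higher (adjusted p = 0.109 for Timp1), and over all probe sets 1 was higher and 0 were lower, although 1081 were higher and 1575 lower at an unadjusted p under 0.05. At an adjusted p of 0.01, 1 member was higher, and 540 probe sets in all were higher and 290 lower. Requiring 2-fold as well left 419 higher and 44 lower in all, and Mmp14 no longer counted. With batch as a random block 1 member, Timp2 160116_at, was lower. With 1 array left out, 1 to 4 members were higher and 0 lower, 521 to 1026 probe sets were higher and 225 to 1412 lower, and 0 to 12 of the 13 Timp1 comparisons passed. Batches 4 and 5 do not enter the contrast, and leaving out either array of batches 1 to 3 removes the same pair.

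Without the replicate block the members higher were again 4 and those lower 0, with 1062 probe sets higher and 1278 lower in all; the log2 difference was 2.40 for Timp1 101464_at, 1.39 and 1.66 for the Mmp12 probe sets 95339_r_at and 95338_s_at and 0.65 for Mmp14. Batch as a fixed term changed no call of a member, whereas as a random block it added Timp2 160116_at as lower (adjusted p = 0.0390, against 0.0667 without the block).

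Values close to 0 changed sign. Timp2 161515_i_at was -0.028 without the replicate block, -0.028 with median centring, -0.021 with a random block, -0.020 with further quantile normalization, -0.017 without EAE arrays 1 and 4 and -0.065 without these arrays and without batch. Timp1 162107_r_at was 0.018 with array weights and 0.0011 without EAE arrays 1 and 4. With 1 array left out Timp2 161515_i_at was -0.017 to 0.021, Timp1 162107_r_at -0.14 to 0.13, Mmp2 161509_at -0.076 to 0.048, Timp3 -0.034 to 0.14 and Timp1 relative to Mmp8 -0.089 to 0.092. With the mean of all probe sets of a gene, which adds the dim Timp1 probe set, Timp1 relative to Mmp12 was -0.33 (exact permutation, adjusted p = 0.357), while Timp1 relative to Mmp8 was -1.25 (exact permutation, adjusted p = 0.0211).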
